A study of Mus musculus with 168 samples.

Results

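The genes described here encode the protein subunits of the mitochondrial ribosome. They were chosen by symbol: every row of the deposited expression table whose symbol starts with Mrpl (large subunit) or Mrps (small subunit) followed by a digit, with 4 pseudogene rows left out. This gave 77 of the 39410 rows, 48 Mrpl and 29 Mrps, which stand for 76 distinct genes because Mrpl53 has 2 rows. Of the 77 rows, 76 entered every test. The exception, 1 of the 2 Mrpl53 rows, was at 0 in all 160 samples. Mrps34 and Mrpl46 were singled out by measured values, namely their difference between genotypes at postnatal day 2 in ocular motor neurons and in red nucleus neurons. For these 2 genes, the contrasts that chose them are therefore described without a test.

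The study compared neurons of mice with spinal muscular atrophy (SMA) and of littermate controls. The SMA mice were of the delta7 model, which lacks both copies of mouse Smn and carries the human SMN2 transgene and the SMNΔ7 transgene on both chromosomes (Smn-/-, SMN2+/+, SMNΔ7+/+). The controls carried both transgenes as well, on an intact Smn background (Smn+/+, SMN2+/+, SMNΔ7+/+), so the transgenes were shared by all groups. Small pools of neurons were cut by laser from frozen tissue at postnatal days 2, 5 and 10, labelled as before symptoms, early and late in the disease. The populations were ocular motor neurons (oculomotor and trochlear nuclei), motor neurons of the facial, vagus and hypoglossal nuclei and of the lumbar spinal cord, and red nucleus neurons, which are not motor neurons. Some ocular samples held the oculomotor nucleus alone. Libraries were made with Smart-seq2, which copies whole polyadenylated transcripts from very small inputs.

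Mitochondria keep a small genome of their own that encodes core subunits of the respiratory chain, and a dedicated ribosome translates its messenger RNAs. All protein subunits of this ribosome are encoded in the nucleus, made in the cytosol and imported. Neurons depend heavily on respiration, and inherited defects of single subunits cause disorders of the brain, heart and muscle.

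There were 168 libraries from 34 mice, 19 SMA and 15 control, and averaging libraries of the same mouse and population gave 160 samples, with 3 to 7 mice in a group. Depth, recovered from the table, had a median of 5.89 M reads (M for mega) and extremes of 0.342 and 16.3. Smn1, the deleted gene, ran from 4.32 to 63.3 RPKM (reads relative to the length of the gene and to the depth of its library) in the 72 control samples and from 0 to 4.24 in the 88 SMA samples. Summed over 4 motor neuron markers, levels were 452 to 1966 RPKM in the motor populations and 4.15 to 100.5 in the red nucleus. A pool with fewer cells and a pool with less RNA per cell cannot be told apart in such data.

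Promoter sequence was available for 67 of the 76 members, as the 250 bases before and 50 bases after each gene's start (RefSeq, GRCm38.p6). Binding motifs of nuclear factors that are known to act on genes for mitochondrial proteins were searched in these windows on both strands. The motif of NRF1 (GCGCA and GCGC parted by any base) was present in 12 member windows (17.9%) and in 5.19% of the windows of 27025 genes. The ETS motif read by GABPA, also called NRF2 (CCGGAAG), was in 24 (35.8%) and in 9.93% of all windows, and that of YY1 (AAGATGGCG) in 8 (11.9%) and in 1.64%. A match describes letters only. The stretches below lie upstream of a RefSeq start of the gene, overlap no annotated exon, and belong to members whose levels are described further on. That of Mrpl48 lies inside the wider bounds of the gene in the GENCODE annotation (chr7:100545751-100608301). They are shown to let a reader see these motifs, which are in capitals, and each is written on the gene's strand.
Mrpl12, NRF1 motif read on the other strand, chr11:120484531-120484590, plus strand: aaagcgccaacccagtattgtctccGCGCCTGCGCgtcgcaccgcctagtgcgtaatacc
Mrpl17, NRF1 motif, chr7:105811102-105811161, minus strand: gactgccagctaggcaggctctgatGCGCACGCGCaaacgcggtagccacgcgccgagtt
Mrpl34, ETS motif, chr8:71464864-71464920, plus strand: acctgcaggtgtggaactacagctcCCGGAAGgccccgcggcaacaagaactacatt
Mrpl52, ETS motif read on the other strand, chr14:54426837-54426893, plus strand: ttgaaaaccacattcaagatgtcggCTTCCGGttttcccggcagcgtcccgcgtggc
Mrpl48, ETS motif read on the other strand, chr7:100583133-100583189, minus strand: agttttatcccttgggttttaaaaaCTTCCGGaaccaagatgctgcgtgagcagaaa

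The members were expressed well above the typical gene in these neurons, over a wide range of levels. The median member had a mean of 68.1 RPKM over the 72 control samples, against 2.65 for the 22270 genes tested, and all 76 tested members lay above that median. Genes with Mrpl symbols had a median of 77.4 RPKM (47 genes) and those with Mrps symbols 52.9 (29 genes). The split follows the symbol, and not every Mrps product belongs to the small subunit, as given below for Mrps18a and Mrps36. Together the members made up 1.15% of summed RPKM, with samples between 0.761 and 1.40%. RPKM is scaled to gene length, so levels can be compared between genes.

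The highest member was Mrpl20, a large-subunit protein with bacterial relatives, at 503.3 ± 78.4 RPKM (SD, n = 72), with control samples from 298.8 to 665.4. Mrpl33, a small large-subunit protein, followed at 498 ± 193.8, and its control samples spread further, from 233.5 to 1084. Mrpl42 (349 ± 106.4), Mrpl41 (244.8 ± 49.0) and Mrps18c (240 ± 63.2) came next; Mrpl42 and Mrpl41 are found in mitochondrial but not in bacterial ribosomes. The lowest was Mrpl23 at 2.77 ± 1.68, whose product lines the exit of the peptide tunnel. Mrps5 (7.23 ± 2.50), Mrpl1 (15.2), Mrpl19 (16.2) and Mrpl48 (17.5 RPKM) were the other low members. The paralogs of Mrps18 differed widely: Mrps18c and Mrps18a, of which the latter sits in the large subunit despite its name, were at 240 and 185.8 RPKM, and Mrps18b at 31.8. The authors' counting of reads between related genes is not given in the sources used here, so the levels of these paralogs carry that uncertainty. Besides the Mrpl53 row named above, 4 member rows were at 0 in 1 or 2 samples: Mrpl53 (its other row), Mrps18b, Mrps34 and Mrpl24.

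**Figure D1:**
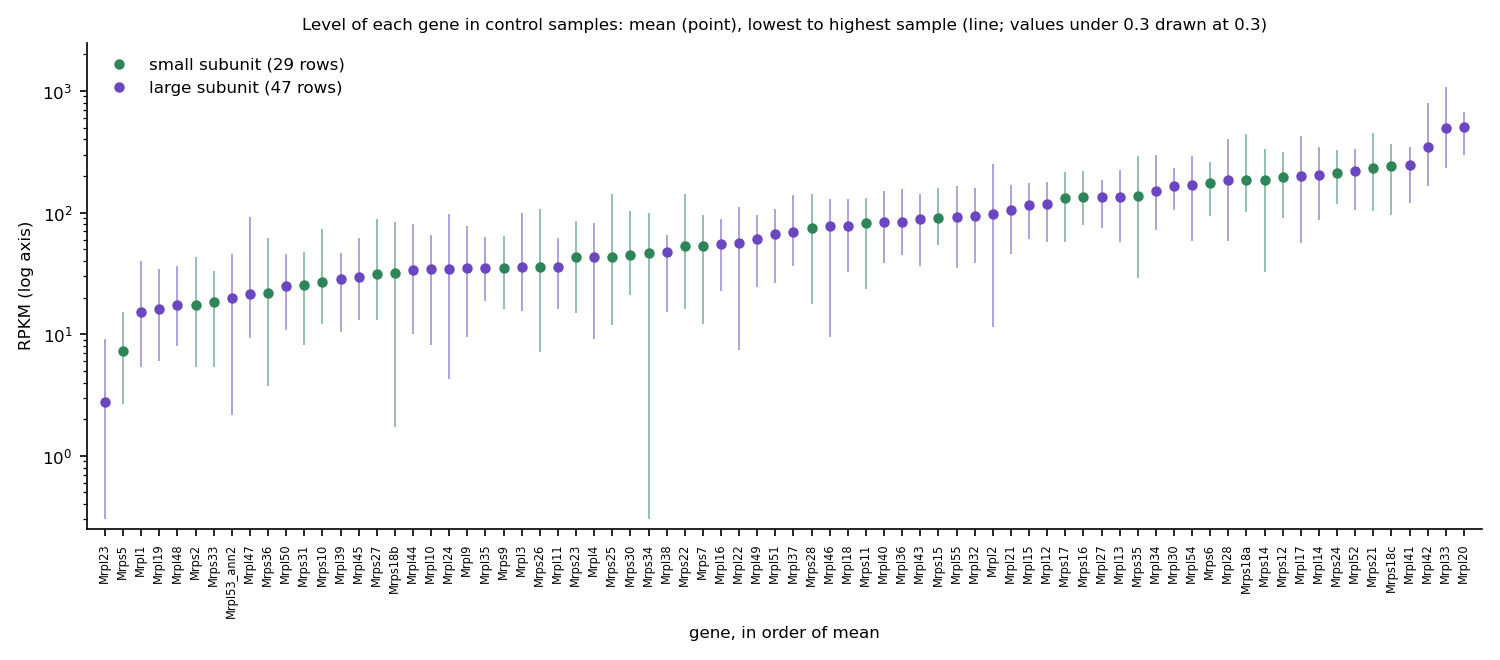
Mean level of each of the 76 tested rows over 72 control samples (RPKM, log axis), ordered from low to high. Points are genes with Mrpl symbols (purple, drawn as large subunit) or Mrps symbols (green, drawn as small subunit). Lines run from the lowest to the highest of these samples. Means span 2.77 (Mrpl23) to 503.3 RPKM (Mrpl20).

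Members varied together only weakly. After the mean of each group was removed, the correlation between pairs of members over the 160 samples had a median of 0.105, and 78.7% of 2850 pairs were positive. The median over pairs of the 13969 genes compared was 0.0135. The highest pair was Mrpl42 with Mrps18c (r = 0.631). Samples of 1 mouse and depth are shared in these points, so the values are descriptions. The summed level of the members ranged over the 36 groups from 6696 ± 776 RPKM in vagus SMA samples at day 2 to 8742 ± 750 in ocular SMA samples at day 10 (SD).

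Mrps34 encodes a small-subunit protein that is found in mitochondrial but not bacterial ribosomes and is needed for the stability of the small subunit. Its gene lies at chr17:24895116-24897502 on the plus strand (GRCm38). In ocular motor neurons at day 2 it was at 0, 5.77, 10.2 and 18.5 RPKM in the 4 controls and at 22.3, 53.9, 54.7, 59.6, 80.1 and 81.0 in the 6 SMA mice. The groups did not overlap, and the difference was 3.16 on the scale of log2(RPKM + 1), on which all differences below are given and which understates changes of low genes. These are the values that chose the gene. They carry no test here, and the share of all genes past the threshold in this contrast, 0.132%, is given for completeness.

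The ocular controls at day 2 were the samples that stood apart. Ocular controls held 36.5, 47.6, 48.1 and 62.4 RPKM of Mrps34 at day 5 and 34.5, 53.2, 60.7 and 67.8 at day 10. The SMA mice ran from 41.3 to 97.3 at day 5 and from 21.3 to 69.8 at day 10. The SMA samples of day 2 thus lay within the range of the later samples of both genotypes, and the controls of day 2 below them. Of the 36 groups of population, day and genotype, ocular controls at day 2 had the lowest mean. The next were the controls of the red nucleus at day 2 (18.2 ± 8.20, SD, n = 4) and its SMA samples (18.3 ± 18.4, n = 4), which do not differ beyond their spread. The highest was facial controls at day 5 (73.3 ± 30.6, n = 4).

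In the other 5 populations the genotypes overlapped in Mrps34 at day 2. Facial controls held 19.2, 30.7, 37.7, 77.5 and 91.6 RPKM, and the 7 facial SMA mice ran from 10.2 to 84.2 with a median of 32.8. Vagus controls held 44.6, 55.9 and 57.3, against 12.4 to 76.1 in SMA. Hypoglossal controls held 35.5, 60.1, 63.98 and 69.6, against 18.6 to 72.95 in SMA. SMA mice lay both below and above the controls or among them. Lumbar controls held 33.8, 48.3, 58.2 and 76.8, against 18.0 to 49.3 in SMA. Red nucleus controls held 11.9, 14.4, 16.4 and 30.2, against 0, 7.09, 25.03 and 40.9 in SMA. The lumbar SMA samples sat mostly in the lower part of the control range, and the red nucleus samples of both genotypes were low.

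The differences of Mrps34 were −0.31 in facial, −0.50 in vagus, −0.40 in hypoglossal, −0.55 in lumbar and −0.90 in red nucleus samples, each with the sign opposite to the ocular one. Averaged per mouse over these 5 populations, the SMA mice were lower by a mean difference of −0.488, which did not pass an exact two-sided permutation test over 6 control and 9 SMA mice (p = 0.0647, 0.129 adjusted over the 2 genes tested so). Leaving out 1 mouse at a time gave −0.603 to −0.293. The raw p fell under 0.05 without control mouse 28 (p = 0.042), SMA mouse 207 (p = 0.0127) or SMA mouse 209 (p = 0.0273; exact permutation tests).

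Mrpl46 encodes a large-subunit protein found in mitochondrial but not bacterial ribosomes, and its gene lies at chr7:78775236-78783531 on the minus strand (GRCm38). In the red nucleus at day 2 it was at 9.49, 24.0, 42.0 and 56.7 RPKM in controls and at 68.0, 104.4, 108.99 and 125.4 in SMA mice, a difference of 1.82 with no overlap. Again these values chose the gene and are not tested (0.0434% of all genes passed the threshold in that contrast). Later red nucleus controls held 70.6, 71.3 and 77.5 RPKM at day 5 and 73.3, 92.0, 98.6 and 100.1 at day 10, and SMA samples ran from 71.97 to 99.7 and from 80.4 to 132.8. Here too the controls of day 2 lay below the other red nucleus samples, and the SMA samples of day 2 within or near the later range. Among the 36 groups, red nucleus controls at day 2 had the lowest mean (33.1 ± 20.6, SD, n = 4), followed by vagus SMA samples at day 2 (57.5 ± 20.0, n = 6). The highest were red nucleus SMA samples at day 10 (108.6 ± 24.4, n = 4).

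No difference of Mrpl46 was detected at day 2 in the other populations. Ocular controls held 47.7, 53.7, 63.1 and 79.7 RPKM, and the 6 SMA mice ran from 40.3 to 99.5. Lumbar controls held 80.02, 91.2, 97.5 and 106.3, against 69.3 to 99.7 in SMA. The groups overlapped in all 5 populations, and the differences were 0.10 in ocular, 0.02 in facial, −0.40 in vagus, −0.30 in hypoglossal and −0.15 in lumbar samples. The mean over these populations was −0.0989 (exact two-sided permutation test over mice, p = 0.514), with −0.157 to −0.0087 when 1 mouse was left out. A difference between genotypes at day 2 was therefore measured for Mrps34 in the ocular neurons and for Mrpl46 in the red nucleus, and in neither case did a test over the remaining populations detect one.

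**Figure D2:**
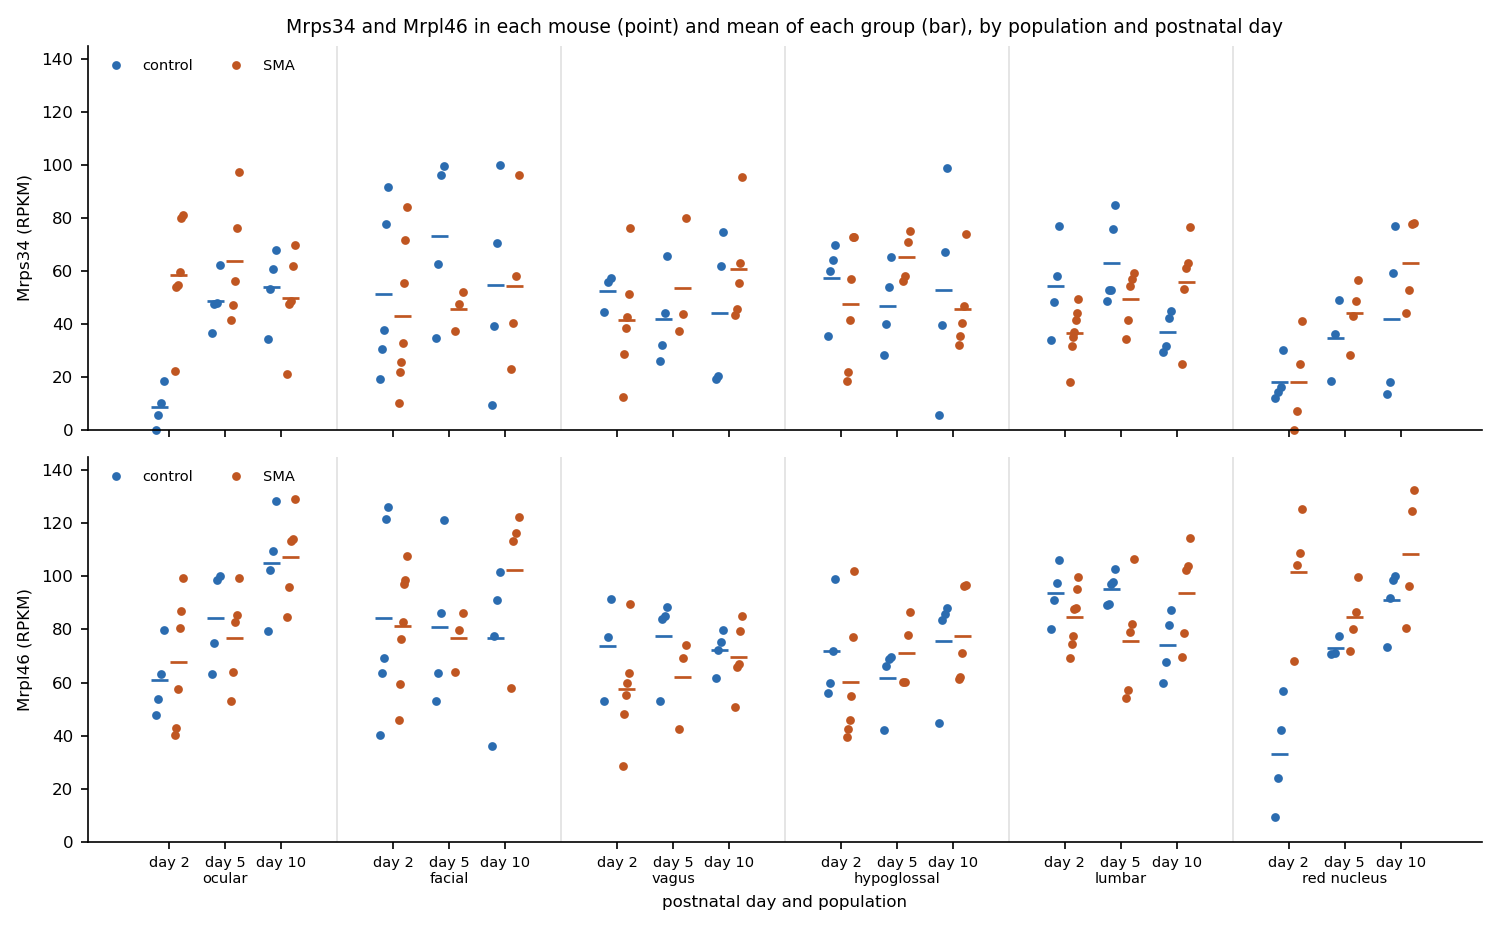
Level of Mrps34 and Mrpl46 (RPKM) in every mouse, by population and postnatal day; blue points are controls, orange points SMA mice and bars the group means. Ocular controls at day 2 reach at most 18.5 RPKM of Mrps34, and red nucleus controls at day 2 at most 56.7 RPKM of Mrpl46, below the SMA samples of the same day.

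Both genes overlap others, and Smart-seq2 does not mark the strand of a read, so reads in shared bases cannot be told apart. Mrps34 shares 1003 bases on the same strand with Nme3, a nucleoside diphosphate kinase, and lies wholly within Mapk8ip3, a JNK scaffold on the opposite strand. At day 2 the row of Nme3 that had reads was at 0 in all 4 ocular controls and in 4 of 6 ocular SMA samples, and at 36.3 and 58.8 RPKM in the other two. Mapk8ip3 differed by −0.08 (adjusted p = 0.927, limma). The neighbours Eme2 (1 of its 2 rows) and Spsb3 differed by 0.57 (adjusted p = 0.64) and −0.27 (adjusted p = 0.944, limma). Mrpl46 overlaps Mrps11, itself a member, head to head by 413 bases. Mrps11, a small-subunit platform protein, held 43.4, 45.8, 48.9 and 59.2 RPKM in red nucleus controls at day 2 and 39.9, 57.5, 58.998 and 75.5 in SMA (difference 0.20, adjusted p = 0.857). Across all samples the deviations of Mrpl46 and Mrps11 correlated with r = 0.234.

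The 4 ocular controls at day 2 had 5.30 to 8.30 M reads and the SMA samples 4.20 to 9.14. In the red nucleus at day 2 the ranges were 3.99 to 7.15 and 5.36 to 7.15. Depth therefore overlapped between genotypes in both contrasts. Oligodendrocyte markers (6 of 6 in the table) summed to 17.3 to 29.2 RPKM in the ocular controls at day 2 and to 28.0 to 150.7 in the SMA samples; the part of this in the Mrps34 values was not tested. Mrps28, a small-subunit protein, had the same shape as Mrps34 in the ocular neurons: 17.7, 30.9, 33.9 and 54.0 RPKM in controls at day 2 and 54.3, 66.3, 71.7, 83.4, 86.3 and 98.6 in SMA mice (difference 1.22). It was noted after its values were seen, in the contrast that chose Mrps34, and is a description as well.

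Outside the 2 contrasts that chose Mrps34 and Mrpl46, no member differed between genotypes by the test in a single population and day. In these 16 contrasts 0 of 76 members passed the threshold, an adjusted p of 0.05 in limma with Benjamini-Hochberg adjustment over all genes. The share of all genes that passed was low in these contrasts, so a count of 0 is close to the background. In the 2 contrasts used for the choice, Mrps34 and Mrps28 (ocular) and Mrpl46 (red nucleus) were past the threshold, from which nothing is read. Mrpl46 was not past it in 20 of 23 fits that left out a mouse, nor in any of 6 other settings. With only the compared groups in the fit, no member passed in the ocular contrast. In the 16 contrasts, the share of all genes that passed was 0.0252% and 0.359% in ocular samples at days 5 and 10. It was 0.0232%, 0.0695% and 0.666% in facial samples at days 2, 5 and 10, and 0.00599% in vagus samples at each day. It was 0.0364%, 0.00607% and 0.0728% in hypoglossal, 0.0122%, 0.0488% and 0.775% in lumbar samples, and 0.0062% and 0.0124% in the red nucleus at days 5 and 10. P-values measure the spread between these mice.

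At an unadjusted p under 0.05 the members numbered 11, 2 and 3 of 76 in facial samples at days 2, 5 and 10, where 9.07%, 5.47% and 7.82% of all genes were under it. They numbered 6, 5 and 6 in vagus (6.68%, 5.30% and 4.55% of all genes), 13, 4 and 3 in hypoglossal (9.63%, 6.01% and 6.78%) and 5, 2 and 19 in lumbar samples (5.71%, 8.14% and 10.0%). There were 4 and 4 in ocular samples at days 5 and 10 (7.04% and 5.90%), and 0 and 3 in the red nucleus (3.09% and 6.01%).

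At day 2, where the rule did not use the contrast, the members' median difference was below that of all genes in each population. It was −0.12 against 0.01 in facial, −0.19 against 0.04 in vagus, −0.07 against 0.05 in hypoglossal and −0.15 against −0.01 in lumbar samples. These medians moved with single mice. Leaving out 1 at a time gave −0.21 to −0.01 in facial, −0.29 to −0.13 in vagus, −0.21 to −0.04 in hypoglossal and −0.17 to −0.09 in lumbar samples. The facial median was −0.01, against 0.01 for all genes, without the library of mouse 206 (1.44 M reads). In ocular samples at day 2 the medians were 0.10 and 0.09, and in the red nucleus −0.10 and 0.11, a contrast in which quantile normalization moved both, to −0.14 and 0.00.

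**Figure D3:**
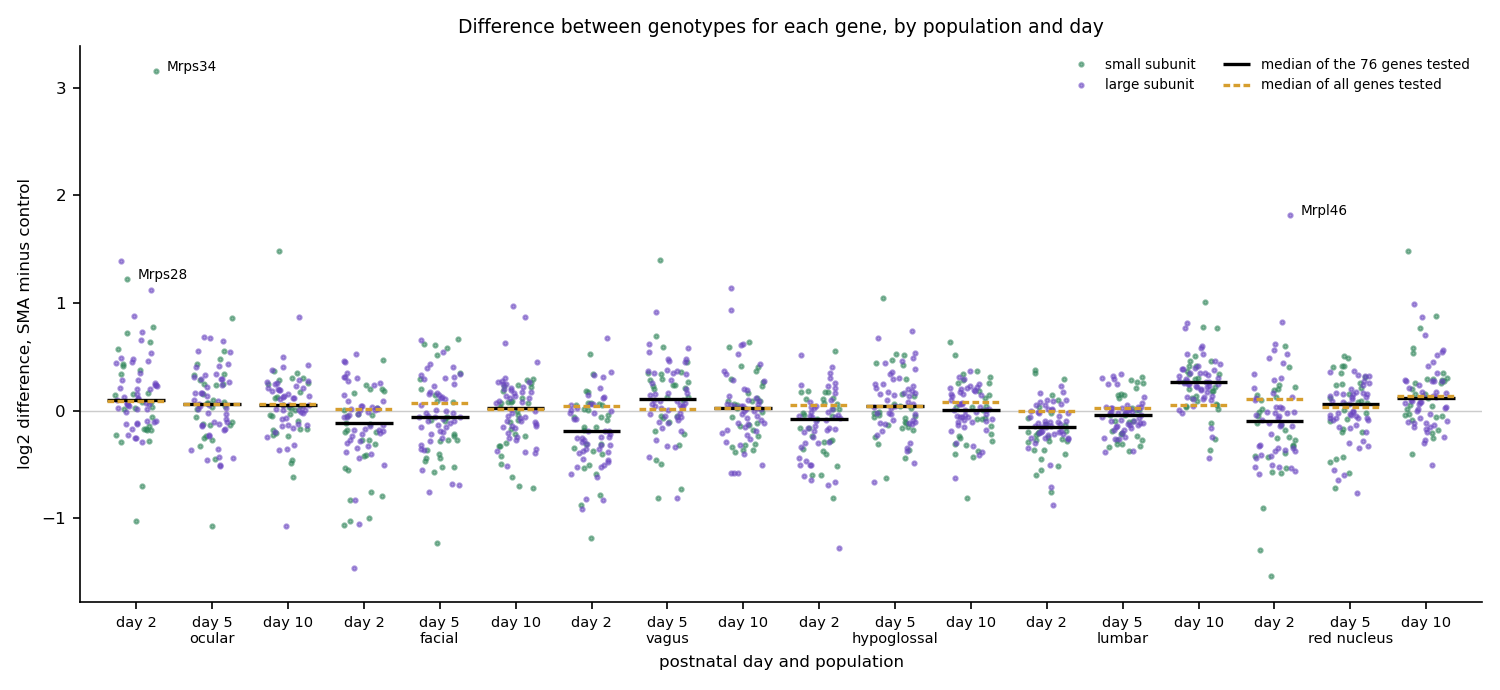
Difference SMA minus control of each of the 76 members (log2 of RPKM + 1) in the 18 contrasts of population and day; the black line is the members' median and the dashed yellow line the median of all genes. Mrps34 (3.16) and Mrps28 (1.22) in ocular and Mrpl46 (1.82) in red nucleus samples at day 2 are labelled, and the members' median reaches 0.26 in lumbar samples at day 10.

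In lumbar motor neurons at day 10 the members lay above the controls more often than in the other contrasts. Of 76 members 69 had a positive difference. The median was 0.26, against 0.05 for all genes, which was itself positive. A share of 25% had an unadjusted p under 0.05, against 10.0% of all genes. All members were measured in the same mice, so these differences are not separate observations. No member passed the adjusted threshold. The lowest adjusted p was that of Mrpl15, a conserved large-subunit protein: 76.4, 78.1, 80.4 and 86.7 RPKM in controls and 109.8, 113.8, 124.01, 125.03 and 130.4 in SMA mice, with no overlap (difference 0.58 ± 0.16 SE, adjusted p = 0.0916). Mrps33, a small-subunit protein, held 5.38, 10.6, 12.3 and 14.0 in controls and 13.5, 17.8, 22.2, 22.6 and 35.3 in SMA, where the groups overlapped by 1 sample (difference 1.01, adjusted p = 0.181). Mrpl41 (0.39, adjusted p = 0.207), Mrps6 (0.46, adjusted p = 0.209) and Mrpl34 (0.52, adjusted p = 0.224) followed. These were chosen after their values were seen.

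The summed level of the members was 6774 to 7219 RPKM in the 4 lumbar controls at day 10, and 6964, 8225, 8549, 8713 and 8907 in the 5 SMA mice. SMA mouse 196, at 6964, lay within the control range and the other 4 above it. The median over members of the difference from the control mean was 0.04 in that mouse and 0.28, 0.28, 0.29 and 0.38 in the others. Leaving out 1 mouse at a time kept the members' median between 0.23 and 0.30 and the number above 0 between 63 and 70, and quantile normalization gave 0.20 and 62. Oligodendrocyte marker sums overlapped, at 537 to 1176 RPKM in controls and 673 to 993 in SMA mice, and so did astrocyte sums, at 1039 to 1231 and 1014 to 1758. Vessel marker sums were low and mostly higher in SMA mice, at 6.96, 10.9, 12.7 and 16.4 RPKM in controls and 15.4, 18.4, 19.0, 29.9 and 33.8 in SMA. The summed level of the mitochondrially encoded genes was 20430 to 30880 RPKM in controls and 19460 to 24020 in SMA mice, with overlap. The part of these differences in the members' levels was not tested.

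Averaging the genotype difference over the 6 populations, with mouse as a random block, 3 members passed the threshold. At day 2 Mrps14 and Mrps25 fell and none rose, where 1.54% of all genes passed. At day 5 none passed (0.117% of all genes), with 7 members at an unadjusted p under 0.05 and a lowest adjusted p of 0.452. At day 10 Mrpl51 rose (1.78% of all genes passed). The counts of 2, 0 and 1 of 76 are near the background. Unadjusted, 15, 7 and 7 members were under 0.05 on the 3 days, where 12.7%, 8.60% and 10.8% of all genes were.

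Mrps14, a conserved protein of the small subunit's head, fell by 0.69 at day 2 (SE 0.19, adjusted p = 0.0355, limma). Facial controls held 149.2, 155.5, 157.2, 169.6 and 239.1 RPKM and the 7 SMA mice ran from 19.7 to 256.98. Red nucleus controls held 112.4, 136.8, 137.0 and 209.3, and the SMA samples 15.4, 19.6, 109.6 and 169.04. In the facial, hypoglossal and lumbar groups 1 SMA sample, and in the red nucleus 2, lay far below the rest. Those low samples, from 15.4 to 29.9 RPKM, came from mice 206 and 211; the facial library of mouse 206 was one of the shallowest, at 1.44 M reads. In the vagus the low SMA sample, at 21.1 RPKM, was that of mouse 207, against controls at 160.3, 180.7 and 213.3. Ocular controls held 115.5, 116.6, 282.5 and 332.4, and the ocular SMA samples lay between, from 133.9 to 221.5. Per population the difference was −1.54 in red nucleus, −0.88 in vagus, −0.60 in hypoglossal, −0.55 in facial, −0.52 in lumbar and −0.17 in ocular samples.

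Mrps25, a small-subunit protein particular to mitochondria, fell by 0.58 at day 2 (SE 0.16, adjusted p = 0.0367, limma). Lumbar controls held 39.1, 45.5, 48.0 and 125.8 RPKM and all 7 SMA mice lay below them, from 28.2 to 38.0. Hypoglossal controls held 42.1, 47.3, 47.9 and 125.95, against 18.8 to 32.4 in 5 SMA mice and 102.4 in mouse 206. In 4 populations 1 control lay far above the rest, at 108.7 to 143.0 RPKM, and these were mouse 26 in facial and hypoglossal samples, mouse 240 in lumbar and mouse 28 in red nucleus samples. The differences were −0.83 in facial, −0.81 in hypoglossal, −0.76 in lumbar, −0.70 in ocular, −0.42 in red nucleus and 0.00 in vagus samples. Apart from the lumbar pair, the groups overlapped.

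Mrpl51, a large-subunit protein particular to mitochondria, rose by 0.63 at day 10 (SE 0.15, adjusted p = 0.00953, limma). Hypoglossal controls held 56.95, 78.4, 78.5 and 80.7 RPKM and SMA mice 83.96, 85.4, 96.2, 100.2 and 108.5, without overlap. Ocular controls held 28.9, 32.9, 94.8 and 102.4, against 52.1, 93.003, 104.8, 115.4 and 184.1. Facial controls held 26.7, 76.4, 81.8 and 98.4, against 83.9, 131.9, 139.3 and 161.9. The ocular and facial groups overlapped, as did those of the vagus, lumbar cord and red nucleus. The difference was positive in all 6 populations, from 0.26 in lumbar to 0.97 in facial samples.

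These 3 calls rested on some populations and mice. Without the ocular and red nucleus samples none of them passed (adjusted p = 0.187 for Mrps14, 0.075 for Mrps25 and 0.161 for Mrpl51), nor with 1 averaged value per mouse (0.373, 0.0577 and 0.253; limma), both alternatives being chosen after seeing the data. Mrps14 was lost without mouse 26, 28, 206, 211, 240 or 244, and Mrps25 without mouse 26, 28, 207, 211, 240 or 244 or without the 2 libraries under 2 M reads (adjusted p = 0.057). Mrpl51 was lost without mouse 253 (0.44, adjusted p = 0.191) or 258 (0.53, adjusted p = 0.0771).

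No member's genotype difference changed with age by the threshold of an F test in any population. The share of all genes that passed was 0.101% in ocular, 0.104% in facial and 0% in vagus, hypoglossal, lumbar and red nucleus samples. Unadjusted, 4, 2, 6, 6, 14 and 7 members were under 0.05 in ocular, facial, vagus, hypoglossal, lumbar and red nucleus samples. The shares of all genes were 6.75%, 5.70%, 5.71%, 7.02%, 8.07% and 5.66% in the same order, against 18.4% of the members in lumbar samples. The ocular and red nucleus tests include the day 2 values that chose Mrps34 and Mrpl46.

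A minority of the members changed with age in the controls, and those that passed the test rose in ocular and red nucleus neurons and fell in lumbar motor neurons. From day 2 to day 10, 8 members rose and 0 fell in the ocular neurons, where 4.38% of all genes rose and 3.64% fell. In the red nucleus 10 rose and 0 fell (5.72% and 5.42% of all genes). In lumbar motor neurons 0 rose and 7 fell (4.76% and 7.25%). No member passed in facial (2.6% and 2.76%), vagus (0.581% and 0.437%) or hypoglossal samples (2.43% and 2.68%). As shares of 76 members the rises were 10.5% in ocular and 13.2% in red nucleus samples and the falls 9.21% in lumbar samples. The ocular and red nucleus contrasts use the same day 2 controls that chose Mrps34 and Mrpl46, so these 2 genes were bound to stand out in them. Without them, 7 of 75 members (9.33%) rose in ocular and 9 of 75 (12%) in red nucleus samples. The 7 still include Mrps28, whose low values in the same ocular controls of day 2 were described above. The lumbar share is near its background of 7.25%. Without the shallow library described below, the red nucleus count is 4 of 76. The 5.72% of all genes was counted with that library, and the share without it is not given here.

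In ocular controls Mrps34 rose from 0, 5.77, 10.2 and 18.5 to 34.5, 53.2, 60.7 and 67.8 RPKM, a difference of 3.11 read as a description because of that choice. Mrpl24, a protein that starts the assembly of the large subunit, rose from 4.32, 9.92, 11.8 and 23.2 to 28.0, 36.7, 38.9 and 43.99 RPKM, without overlap (1.69 ± 0.36 SE, adjusted p = 0.00334, limma). Mrps28 rose from 17.7, 30.9, 33.9 and 54.0 to 76.2, 78.1, 82.1 and 92.1, again without overlap (1.34 ± 0.26 SE). This too is read as a description, because the same low controls of day 2 had drawn notice to Mrps28 above. The other five, named after their values were seen, were Mrps12 of the decoding centre (0.98, adjusted p = 0.00201), Mrpl44 (0.96), Mrps23 (0.96), Mrpl4 (0.86) and Mrpl16 (0.78). The median of all 76 members was 0.25 (57 above 0; 0.16 to 0.33 with 1 mouse left out), and that of all genes 0.06.

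In red nucleus controls Mrpl17, a conserved large-subunit protein at the peptide exit whose upstream NRF1 motif is printed above, rose from 55.7, 63.1, 76.5 and 153.5 to 229.4, 236.3, 250.2 and 427 RPKM, without overlap (1.77 ± 0.28 SE, adjusted p = 0.000192, limma). It passed the threshold whichever mouse was left out. Mrpl46 rose by 1.68, as a description. Mrpl24 went from 5.32, 7.88, 22.0 and 25.04 to 24.3, 28.6, 31.7 and 98.1, with 1 sample of overlap (1.54 ± 0.42 SE, adjusted p = 0.0174). That call was lost without mouse 252 (1.10, adjusted p = 0.0844), 26 or 244, and with only the compared groups in the fit (adjusted p = 0.131, limma). The others that rose were Mrpl2, Mrpl22, Mrpl4, Mrps21, Mrpl35, Mrps11 and Mrpl41, by 0.78 to 1.53. The members' median was 0.25 (51 above 0), and that of all genes −0.01. Without mouse 252, whose day 10 sample is the library of 0.342 M reads, the count fell from 10 to 4 and the members' median to 0.13. The count was 5 without mouse 244 and 2 with only the compared groups in the fit.

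In lumbar controls Mrps24, a small-subunit protein near the mRNA entry, fell from 221.8, 255.95, 272.9 and 294.2 to 129.9, 134.1, 150.6 and 170.1 RPKM, without overlap (−0.83 ± 0.18 SE, adjusted p = 0.00183, limma). Mrpl52, of the large subunit and with the ETS motif printed above, fell from 247.0, 249.1, 291.9 and 332.2 to 153.7, 154.0, 157.2 and 218.5 (−0.72 ± 0.17 SE, adjusted p = 0.00366), also without overlap. Mrpl55, a large-subunit protein, fell from 95.2, 101.5, 110.8 and 134.8 to 34.9, 43.1, 75.5 and 88.5 (−0.95 ± 0.30 SE, adjusted p = 0.0385). That call was lost in 5 of the fits that left out a mouse and without the filter on low values. Mrpl11 (−0.70), Mrpl33 (−0.67), Mrpl15 (−0.63) and Mrps6 (−0.57) fell as well. Mrpl15 and Mrps6 were also among those with a positive genotype difference at day 10. Both comparisons use the same lumbar controls of day 10, so they are not separate observations. The members' median was −0.19 (20 above 0) and that of all genes −0.10; after quantile normalization they were −0.12 (25 above 0) and 0.00.

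Oligodendrocyte markers rose with age in the same controls. Their summed level went from 17.3 to 29.2 RPKM at day 2 to 351 to 503 at day 10 in ocular samples, and from 17.5 to 26.6, with Mobp at 0 in every control of day 2, to 322 to 651 in the red nucleus. In lumbar samples it went from 16.9 to 46.9 to 537 to 1176, in facial samples from 24.2 to 42.5 to 235 to 276, and in hypoglossal samples from 30.9 to 92.6 to 190.6 to 775.5. It did not rise in vagus samples, at 52.7 to 110 and 41.4 to 86.6. Astrocyte markers (6 of 6 in the table) summed to 618 to 981 RPKM at day 2, with Gfap at 0 in every control, and to 1464 to 1849 at day 10 in the red nucleus. They went from 1288 to 1579 to 1460 to 1897 in ocular samples, and down in lumbar samples, from 1441 to 1769 to 1039 to 1231. The part of other cells in the members' change with age was not tested.

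In SMA mice the same comparison, given as medians only, was 0.21 in ocular, 0.12 in facial, 0.25 in vagus, 0.13 in hypoglossal, 0.19 in lumbar and 0.50 in red nucleus samples. The medians of all genes lay between −0.08 and 0.04. The facial median was 0.02 (41 above 0) without the library of 1.44 M reads. In the lumbar cord 59 members were above 0 in SMA mice and 20 in controls.

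**Figure D4:**
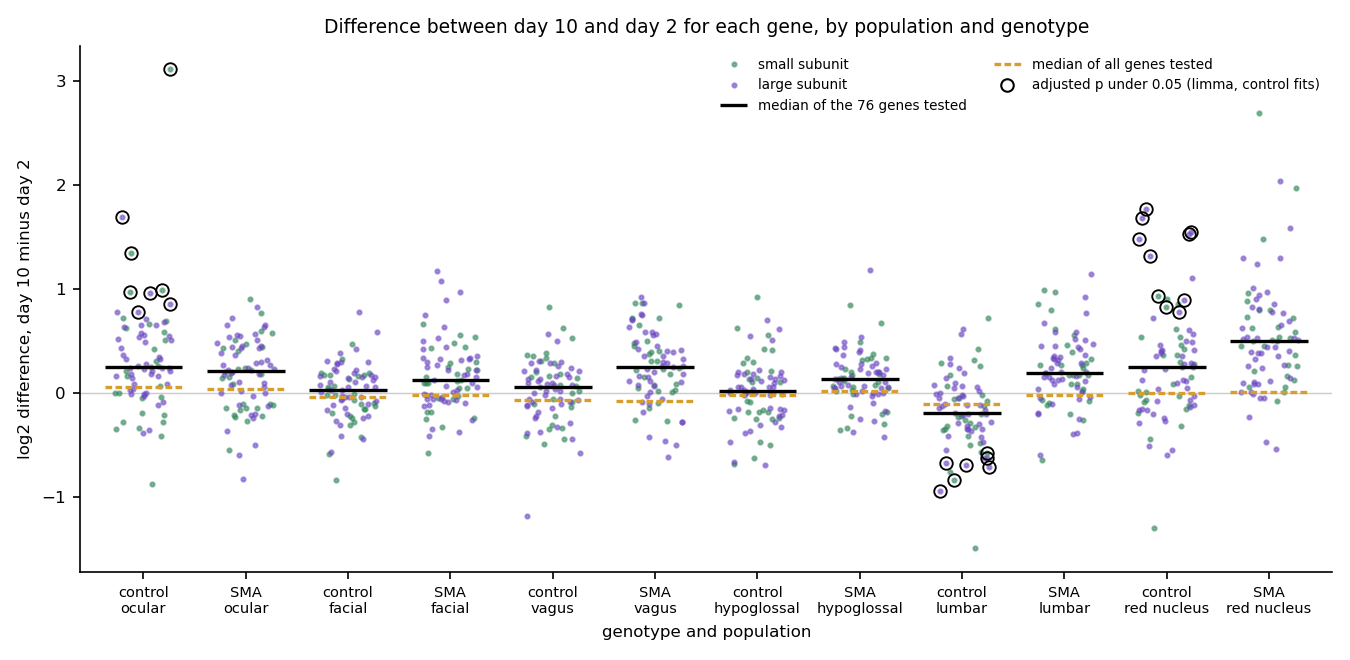
Difference day 10 minus day 2 of each member (log2 of RPKM + 1) in controls and in SMA mice of each population; circles mark members with an adjusted p under 0.05 in controls. Circled members lie above 0 in ocular (8) and red nucleus (10) samples and below 0 in lumbar samples (7).

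The populations themselves differed in the members' levels. In controls, with mouse as a block, 33 of 76 members differed among the 6 populations, a share below that of all genes (52.6% of 15809 passed). The smallest adjusted p-values were those of Mrpl12 (2.56e-10), Mrpl42 (1.01e-08), Mrpl33 (1.23e-08), Mrpl54 (2.56e-06), Mrpl34 (5.4e-06) and Mrpl41 (1.22e-05; limma), all of the large subunit. Mrps34 and Mrpl46 were not among the 33 (adjusted p = 0.247 and 0.240).

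Each population was then compared with the mean of the other five. In ocular neurons 8 members were higher and 1 lower (9.07% and 12.4% of all genes). In facial neurons 3 were higher and 1 lower (6.81% and 4.38%). In vagus neurons 4 were higher and 18 lower (18.8% and 15.2%), so the lower share of members, 23.7%, lay above the background and the higher share, 5.26%, below it. In hypoglossal neurons 0 were higher and 2 lower (7.92% and 4.39%), in lumbar neurons 4 and 5 (10.5% and 10.9%) and in the red nucleus 7 and 5 (10.3% and 16.2%). The members' median was −0.13 in vagus neurons against 0.04 for all genes, and between −0.01 and 0.10 in the other populations.

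Mrpl12, whose product forms the stalk that recruits translation factors and which has the NRF1 motif printed above, was highest in lumbar motor neurons. There it ran from 122.3 to 178.6 RPKM with a median of 147.7 (mean 149.9 ± 17.4, SD, n = 13), a difference of 0.48 from the other populations (adjusted p = 3.81e-06, limma). It was lowest in vagus neurons, from 56.8 to 103.1 with a median of 80.7 (n = 11), so these 2 populations did not overlap. Facial samples had a mean of 137 ± 24.6, and ocular (112.7 ± 20.0), hypoglossal (116.1 ± 23.0) and red nucleus samples (104.7 ± 28.4) lay between and within each other's spread.

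Mrpl33 had its highest and lowest populations the other way round from Mrpl12. It was highest in vagus neurons, from 505.4 to 1084 RPKM with a median of 672.1 (mean 751 ± 183.9, n = 11; difference 0.74, adjusted p = 4.58e-08), and lowest in lumbar neurons, from 233.5 to 549.5 with a median of 318.1 (344 ± 97.99, n = 13; −0.62, adjusted p = 2.56e-06, limma). The means of the other populations were 445 to 517 RPKM. Mrpl42 was highest in ocular neurons, from 275.6 to 583.7 with a median of 445.6, and lowest in vagus neurons, from 166.1 to 360.1 with a median of 266.1. The ocular and vagus ranges overlapped for Mrpl42, while the difference of ocular from the other populations was 0.52.

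Mrpl34 stood out in the red nucleus, from 117.4 to 294.8 RPKM with a median of 201.8, against means of 126.6 to 163.2 in the motor populations (difference 0.64, adjusted p = 2.87e-06, limma); the ETS motif upstream of it is printed above. Mrpl41 and Mrpl54 were lowest in the red nucleus, at 183.8 ± 50.2 and 110 ± 32.9 RPKM (SD, n = 11), against means of 241.6 to 266 and 149 to 206 elsewhere. Among small-subunit symbols, Mrps36 was higher in ocular (27.5 ± 10.2, n = 12; 0.54, adjusted p = 0.0281) and lower in vagus neurons (14.9 ± 9.70, n = 11; −0.72, adjusted p = 0.00218). Despite its name its product is now placed in the 2-oxoglutarate dehydrogenase complex. Mrps7, of the small subunit's head, was lower in ocular neurons (41.0 ± 16.4; −0.44, adjusted p = 0.0243). The ocular calls of Mrps36 and Mrps7 were each lost in 3 of the fits that left out a mouse, and that of Mrps36 without the replicate block. Mrps11 was higher in facial neurons (103 ± 16.6, n = 13; 0.50, adjusted p = 0.00527). Mrps26 was lower in hypoglossal neurons (22.0 ± 18.9, n = 12; −0.86, adjusted p = 0.0417), a call lost in 7 of the fits that left out a mouse. Mrpl53 was lower in the red nucleus (14.0 ± 10.2; −0.80, adjusted p = 0.00363), and Mrpl34 in facial neurons (−0.29, adjusted p = 0.0434), a call lost in 9 of the fits that left out a mouse and without the filter on low values.

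**Figure D5:**
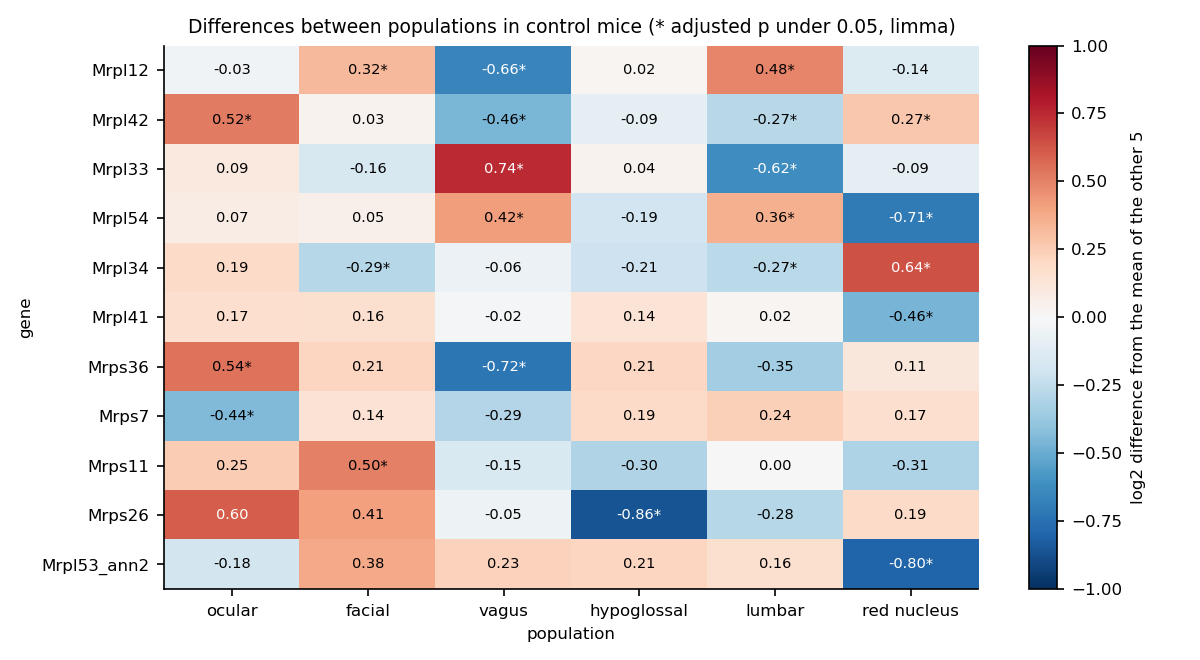
Difference of 11 members in each of the 6 populations of control samples from the mean of the other 5 (log2 of RPKM + 1, colour); stars mark an adjusted p under 0.05. Mrpl12 and Mrpl33 have opposite signs in vagus (−0.66 and 0.74) and lumbar samples (0.48 and −0.62).

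Astrocyte markers summed to 362 to 797 RPKM in vagus controls and to 618 to 2093 in the other populations, so vagus samples also differed in this respect; its part in the members' levels was not tested. The mitochondrially encoded protein genes, whose messages this ribosome translates, were lower in the same population. Of the 13 in the table, 7 passed the filter on low values and were tested. All 7 were lower in vagus controls, by −0.25 to −0.62 (mt-Nd6 and mt-Cytb), where 15.2% of all genes were lower. In lumbar controls 5 of 7 were higher (10.5% of all genes) and in ocular controls 3 of 7 (9.07%). In hypoglossal controls mt-Nd2 and mt-Nd6 were lower (4.39% of all genes).

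Other genes of mitochondrial translation were counted over lists of such genes. In SMA against control the leucyl-tRNA synthetase Lars2, 1 of 21 synthetase genes, was higher in hypoglossal samples at day 2 (1.70, adjusted p = 0.00724) and on average over the populations at day 2 (1.18, adjusted p = 7.86e-06, limma). On average at day 2, mt-Co1 (−0.49, adjusted p = 0.00213) and mt-Cytb (−0.29, adjusted p = 0.0124, limma) were lower, 2 of 8 mitochondrially encoded genes. At day 10 the assembly helicase Dhx30 was higher on average (0.34, adjusted p = 0.0307, limma). Of all genes, 0.0364% passed in hypoglossal samples at day 2. On average over the populations 1.54% passed at day 2 and 1.78% at day 10. These calls were not refitted with mice left out or with 1 value per mouse. No gene of the lists of other mitoribosome proteins and of translation factors passed in any genotype contrast. In red nucleus controls from day 2 to day 10, 4 of the 9 genes listed as mitoribosome proteins with other symbols rose. They were Oxa1l, the inner membrane insertase (1.44), Dap3 (1.56), Gadd45gip1 (1.12) and Aurkaip1 (0.87). Their adjusted p-values were 0.00192 to 0.0339 (limma), where 5.72% of all genes rose. The assembly factors Rbfa (1.45) and Rpusd3 (1.84), the elongation factor Tufm (1.06) and the RNA stabilizer Slirp (0.72) rose there too. These red nucleus calls were not refitted without the library of 0.342 M reads. Without it the count of members in this contrast fell from 10 to 4. In ocular controls Dap3 (1.27) and the synthetase Nars2 (1.89) rose. In lumbar controls Kars, Rars2, mt-Co1, mt-Nd1 and mt-Nd5 fell, by −0.48 to −0.68. In facial controls, where no member passed, Mars2 (1.79), Vars2 (1.76) and Slirp (0.71) rose and Cars2 (−1.57) and mt-Co1 (−0.88) fell. In vagus controls Iars2 rose (2.14) and in hypoglossal controls mt-Cytb fell (−0.54), again with no member past the threshold. These genes of the age comparison were named after their values were seen.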

How the data were processed

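The members and gene lists were chosen with earlier results of these data known. The authors deposited 1 table of RPKM with 39410 rows and 168 libraries. The aligner STAR 2.4.1c is named in the submitters' processing notes, and mm10 and hg19 as builds, without the role of each. The read counter and annotation are not given in the sources used here, and per the labels the 5 lumbar control libraries of day 5 also hold reads of an earlier deposit. Coordinates are from GENCODE M21 and RefSeq (GRCm38).

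Libraries of 1 mouse and population were averaged in RPKM, and log2(RPKM + 1) was fitted with limma 3.58.1 in R 4.3.3 (lmFit, eBayes with trend), per population over its 6 groups. Rows needed an RPKM of 1 or more in a number of samples equal to the smallest group. Benjamini-Hochberg adjustment ran over all rows tested, with a threshold of 0.05. The average contrast used duplicateCorrelation with mouse as block (correlation 0.0366), and the population comparison in controls used mouse as a fixed block, since a mouse gave several populations. No counts were used, and no count test was run. Relative depth was read from the RPKM steps of 17340 genes with a single transcript and covers counting only. The fits were tested on simulated data. Python 3.11.15, pandas 2.3.3, SciPy 1.17.1 (exact permutation tests) and matplotlib 3.10.9 were used.

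Named genes were Mrps34, Mrpl46 and their neighbours, members past the threshold in a genotype test, the 3 largest changes in each direction with age per population (at least 10 RPKM in the higher group), the 6 smallest p-values and the largest differences among populations, the 5 highest and 5 lowest members and the Mrps18 paralogs. Alternatives were a pseudocount of 0.1, no filter, quantile normalization, each library as its own sample, fits of the compared groups only, no replicate block and leaving out each of 34 mice.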

Additional observations from a re-analysis of the deposited data

Results flagged for a closer look

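Dixon's test was applied to groups of 4 to 10 samples for Mrps34, Mrpl46, Mrps28, Mrps14, Mrps25 and Mrpl51, and 18 groups had a sample that stood apart from the others. Chance gives about 1 in 20 groups. The value of that sample and its nearest neighbour follow, in RPKM.

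Mrps25 had 7 of the 18, all high samples. They were a facial control at day 2 (143.0, next 38.13), a hypoglossal control at day 2 (125.95, next 47.9), a lumbar control at day 2 (125.8, next 48.02) and a red nucleus control at day 2 (108.7, next 29.07). They were also a hypoglossal SMA sample at day 2 (102.4, next 32.37), a hypoglossal control at day 10 (143.3, next 53.62) and a vagus SMA sample at day 10 (105.5, next 41.12). The facial and hypoglossal controls of day 2 were the same mouse, and the others came from different mice.

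Mrpl46 had 4 low samples: a facial SMA sample at day 10 (57.79, next 113.3), hypoglossal controls at day 5 (42.09, next 66.31) and day 10 (44.68, next 83.73) and a vagus control at day 5 (52.99, next 84.11). Mrpl51 had 3 low samples: a facial control at day 2 (57.29, next 77.64), a hypoglossal control at day 10 (56.95, next 78.43) and an ocular SMA sample at day 5 (33.003, next 78.24). Mrps28 had a low facial control at day 5 (38.58, next 84.4) and a high vagus control at day 10 (142.8, next 78.62). Mrps14 had a high facial control at day 2 (239.1, next 169.6) and a low vagus control at day 5 (124.3, next 178.9).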

How the results depend on the processing

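Depth limits rows of low level most, and 2 libraries held under 2 M reads. The count of members called over the 16 genotype contrasts was 0, and 1 when only the compared groups were fitted. The genotype-by-age count was 0, and 1 with each library as its own sample. The lumbar age count was 7, and 12 with only the compared groups. The red nucleus age count was 10, and 2 with only the compared groups or 4 without the 2 shallow libraries. The average contrast gave 2 members at day 2, 1 without the shallow libraries and 0 without ocular and red nucleus samples or with 1 value per mouse. At day 10 it gave 1, and 0 under the latter pair. The alternatives on shallow libraries, left-out populations and 1 value per mouse were added after seeing the data, and why counts moved was not tested.

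Without the replicate block of mice, the average counts were 2, 0 and 1, the population F test called 27 members (33 with it) and the single populations 48 (58 with it). No paired analysis was possible within a population because a mouse has 1 genotype and 1 day. With 1 mouse left out at a time, counts were 0 to 1 over the 16 contrasts, 0 to 4, 0 to 0 and 0 to 2 for the average at days 2, 5 and 10, and 0 to 1 for genotype by age. With age they were 6 to 9 in ocular, 5 to 9 in lumbar, 4 to 10 in red nucleus, 0 to 1 in hypoglossal and 0 to 0 in facial and vagus controls. They were 29 to 36 for the population F test and 49 to 59 for the single populations. The mean Mrps34 difference ran from −0.603 to −0.293, and was −0.615 with a pseudocount of 0.1 and −0.476 after quantile normalization. That of Mrpl46 ran from −0.157 to −0.0087. No result reversed. Of the values for single named genes, 919 kept their side of the threshold and 87 lost it. The 919 include fits without a mouse that gave no sample to the population compared, which could not change. Both numbers include Mrps34 and Mrpl46 in the contrasts that chose them, so they do not measure stability.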
